A study of Mus musculus with 58 samples.

Results

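The genes of the proteasome were followed in mouse embryonic stem (mES) cells that lost the H3K4 methylation machinery and in the same cells during retinoic acid (RA) treatment. Members were all genes whose symbol starts with Psm, followed by a letter from a to g and a number. That rule found 49 of the 20177 genes in the tables. Of these, 48 code for subunits, activators, inhibitors or assembly chaperones of the proteasome. The other match, Psmc3ip, codes for a factor of homologous recombination in meiosis and was left out of every count. Psmb7, the catalytic subunit with trypsin-like activity, was not analysed here.

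All cells were E14 mES cells of the 129/Ola background. In DPY30-mAID cells, DPY30 carries a degron that auxin activates. In RBBP5-FKBP cells, RBBP5 carries a tag that dTAG-13 directs to degradation. DPY30 and RBBP5 are shared subunits of the SET1 and MLL complexes, which methylate H3K4. The dKO cells are DPY30-mAID cells that also lack Kdm5a and Kdm5b, which code for H3K4me3 demethylases, and their controls at 0 h lack both genes too. SLAM-seq was done at 0, 2, 8 and 24 h of ligand in DPY30-mAID and RBBP5-FKBP cells, with 3 libraries per time, and at 0, 2, 4, 8, 24 and 48 h of auxin in dKO cells, with 2 per time. In SLAM-seq, RNA made during the last 60 min of culture took up 4-thiouridine (4SU, 100 µM) and is read with T>C mismatches. Quant-seq, which counts 3′ ends without 4SU, was done on DPY30-mAID cells at 0 h and after 8 h, 1 day, 2 days, 4 days and 6 days of 1 µM RA without LIF, with DMSO or with auxin. The Quant-seq groups held 2 libraries each, except that there was no auxin group at 0 h. On day 6 of DMSO both libraries held the same counts and entered as 1 sample. RBBP5-FKBP cells are a clonal line, and 2 dKO clones were isolated. Which clone gave which dKO library is not given in the sources used here.

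Between 1264241 and 7792404 reads per library were counted, with the most in dKO cells (5931269 to 7792404) and the fewest in the Quant-seq libraries with auxin (1264241 to 2170752). Reads of dKO and Quant-seq libraries covered 11.2 to 11.9 T positions on average, against 18.0 to 19 in DPY30-mAID and RBBP5-FKBP libraries. A comparison of dKO with DPY30-mAID cells therefore cannot be told apart from read length and library set. The 3′-end reads of the deleted genes were fewer in dKO cells at 0 h: Kdm5b was at 153 and 113 scaled CPM, against 929 to 983 in DPY30-mAID cells, and Kdm5a was at 26.2 and 28.5 against 77.4 to 108. CPM here are counts relative to the library's total reads, scaled by TMM. The degrons act on protein, so the RNA of Dpy30 does not check them. All 7 genes of an ES cell marker list were detected in every group.

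The proteasome degrades proteins that carry ubiquitin chains. Its 20S core is a barrel of stacked rings. The outer rings are made of the α subunits (Psma1 to Psma7), which form the gate, and the inner rings of the β subunits (Psmb1 to Psmb7), of which Psmb5, Psmb6 and Psmb7 cut peptides. The 19S regulator caps the core: its base holds the ATPases that unfold substrates (Psmc1 to Psmc6) with the scaffold and ubiquitin-binding subunits Psmd1, Psmd2 and Psmd4, and its lid holds Psmd14, which removes ubiquitin, with Psmd3, Psmd6 to Psmd8 and Psmd11 to Psmd13. Immune cells exchange catalytic subunits for Psmb8, Psmb9 and Psmb10. Psme1 to Psme4 code for other caps, Psmf1 for the inhibitor PI31, Psmg1 to Psmg4 for chaperones of the core, and Psmd5, Psmd9 and Psmd10 for chaperones of the base. When proteasome activity is low, the transcription factor encoded by Nfe2l1 is known to raise the subunit genes together through antioxidant response elements. By these roles, the 48 genes were 9 of the base, 8 of the lid, 7 of the α ring, 6 of the β ring, 7 chaperones, 6 activators or inhibitors and 5 immune, thymus or testis forms.

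Promoter sequences from RefSeq (GRCm38.p6, 250 bases before to 50 after the start) were at hand for 41 of the 48 genes and were searched on both strands. The letters TGACNNNGC, a form of the antioxidant response element, were found in 6 of the 41 genes (14.6%) and in 14.0% of all 27025 genes with a promoter. With the other form, TGAGNNNGC, 16 genes (39.0%) held at least 1 of the forms, against 30.8% of all genes. CCAAT was found in 14 genes (34.1%), against 41.1% of all genes. CCGGAAG, the core bound by ETS family factors, was also found in 14 genes (34.1%), against 9.93% of all genes. These letters can lie next to each other: in Psmd13, TGAGNNNGC starts at the base after CCGGAAG. The windows shown belong to members whose RNA changed in opposite directions in RA (Psmb5 and Psmb6 against Psme4) and to members with changed T>C reads (Psmd11, Psmd13 and Psmg3). Capitals mark the letters that matched, and each window is written 5′ to 3′ on the strand of the match. The TGACNNNGC windows lie at chr14:54618024-54618052 (minus strand) for Psmb5, chr11:70525338-70525366 (plus) for Psmb6 and chr11:30771758-30771786 (minus) for Psme4, and the CCGGAAG windows at chr11:80428594-80428620 (minus) for Psmd11, chr7:140882378-140882404 (plus) for Psmd13, chr11:30771712-30771738 (plus) for Psme4 and chr5:139826874-139826900 (minus) for Psmg3. All lie within 50 bases of the gene's start. A match is a match of letters, and binding was not analysed here.
Psmb5 TGACNNNGC: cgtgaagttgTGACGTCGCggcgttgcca
Psmb6 TGACNNNGC: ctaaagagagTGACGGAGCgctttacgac
Psme4 TGACNNNGC: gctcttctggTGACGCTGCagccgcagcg
Psmd11 CCGGAAG: aaacacacacCCGGAAGacccgccctc
Psmd13 CCGGAAG: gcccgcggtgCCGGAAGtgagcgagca
Psme4 CCGGAAG: tggccccgccCCGGAAGtgacttgagg
Psmg3 CCGGAAG: cggacaggaaCCGGAAGttctcgccgg

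The genes of the standard proteasome were expressed in every line. Of the immune forms, Psmb8 and Psmb9 were nearly silent at 0 h, and Psmb10 was at a mean of 7.03 scaled CPM in DPY30-mAID, 13.1 in RBBP5-FKBP and 27.1 in dKO cells and at 26.3 in Quant-seq. Psmb10 thus lay above the chaperone gene Psmd9 in dKO cells (19.6). Because 3′-end libraries give 1 read per transcript, CPM were not divided by length. At 0 h in DPY30-mAID cells, Psmd1, the scaffold of the base, was highest at 862, 831 and 809 scaled CPM. Psmd11 of the lid came next at 713, 779 and 722. These levels did not overlap, but 56.8% of the Psmd11 reads in these long-read libraries also mapped elsewhere. Of the 48 genes, 7 had over 50% such reads in the long-read or the short-read libraries: Psma3, Psma4, Psma5, Psmb3, Psmb5, Psmb11 and Psmd11. In 3 genes the share differed by over 20 percentage points between long and short reads. Psmb3 was the extreme, with 0.4% against 88.8%.

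Among the immune forms, Psmb8 had 12 reads over all distinct libraries and Psme2, a subunit of the PA28 cap, had 1. Psme2b had 36 reads in all and the thymus form Psmb11 had 61. Psmb9 had at most 42 reads in any library and Psma8, the testis form of the α ring, at most 37. Psmb10 ranged from 8 to 227 reads and Psme1, the partner of Psme2, from 20 to 112. The members that passed the filter of a mean of 10 reads in at least 1 group were, for total reads, 43 of 48 in each SLAM-seq line and 44 in Quant-seq, and for T>C reads 39 in DPY30-mAID, 38 in RBBP5-FKBP and 37 in dKO cells. At such depth, Psmb8 and Psme2 could not be tested.

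The T>C share is the percentage of a gene's reads with a T>C mismatch. In proteasome genes its median was lower than over all genes. The share also depends on the T positions in a gene's reads, for which it was not corrected. At 0 h in DPY30-mAID cells, the 37 members with a mean of at least 100 reads had a median T>C share of 9.47%, with a range of 3.85% to 30.2%. The median of the 4080 genes with as many reads was 17.6%, with quartiles at 11.2% and 26.3%. In RBBP5-FKBP cells the medians were 5.24% (38 members) and 10.1% (4172 genes), and in dKO cells 3.24% (41 members) and 5.38% (6870 genes). The members thus lay lower than the median gene in all 3 lines. In Quant-seq libraries, which had no 4SU, 0.303% to 0.388% of all reads held a T>C mismatch.

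The members differed widely in this share. Psmg3, a chaperone of the core, had the highest share in DPY30-mAID cells at 25.4%, 35.3% and 27.8%. Psmd7 of the lid followed at 29.2%, 27.3% and 28.9%, so the order of these genes is within their spread. The lowest were Psmd13 of the lid at 4.09%, 5.12% and 1.92%, and the ubiquitin receptor Psmd4 at 4.46%, 6.58% and 3.93%, which overlapped too. The libraries of the highest pair did not overlap with those of the lowest pair. The order of members was alike between lines: Spearman's rho was 0.81 between DPY30-mAID and RBBP5-FKBP cells over 37 genes, 0.74 between DPY30-mAID and dKO cells over 37 genes, and 0.78 between RBBP5-FKBP and dKO cells over 38 genes. The lines share the 3′ intervals, and the number of T positions in them, so these values are a description across genes that are not independent. Of the 4 named members, Psmg3 and Psmd7 were among the 3 highest in each line. Over the pooled reads of the libraries, Psmd13 was at 3.85%, 3.58% and 0.704% in DPY30-mAID, RBBP5-FKBP and dKO cells. Psmd4 was at 5.03%, 2.52% and 2.11%, which was rank 34 of 41 in dKO cells.

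Loss of DPY30 was compared with 0 h to ask whether the synthesis of proteasome RNA depends on H3K4 methylation. At 8 h, T>C reads of Psmc5 and Psmd7 fell, and those of the other 37 members tested did not pass the test. Both calls ended when the scaling was taken from the T>C reads, which sets the median of all genes near 0. The members' median was then 0.12, and the 1 member called was higher. The members' median log2 fold change was −0.63, and that of all 6317 genes tested was −0.72. The call was an adjusted p under 0.05 in edgeR's quasi-likelihood test with Benjamini-Hochberg adjustment over all genes tested. The calls were 2 of 39 members (5.13%), beside 16.1% of all genes called lower, and the difference between these shares was not tested. All comparisons with 0 h within a line share its libraries at 0 h.

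The ATPase gene Psmc5 was at 11.5, 8.88 and 10.0 scaled CPM of T>C reads at 0 h and at 4.06, 1.40 and 1.30 at 8 h. All treated libraries lay below all untreated ones, with a log2 fold change of −2.12 (SE 0.64, adjusted p = 0.0183). Psmd7 of the lid was at 113, 89.2 and 124 at 0 h and at 80.3, 61.0 and 33.4 at 8 h, which did not overlap either (log2 fold change −0.90, SE 0.31, adjusted p = 0.0358). With the scaling from T>C reads, Psmc5 was at −1.45 (adjusted p = 0.176) and Psmd7 at −0.18 (adjusted p = 0.691). Psmd7 also missed the threshold without TMM factors (−0.80, adjusted p = 0.0811) and without the filter on low counts (−0.90, adjusted p = 0.0562). The 8 h libraries differed among themselves. The T>C mismatches counted per T>C read were 1.24, 1.16 and 1.06 in replicates 1, 2 and 3 at 8 h. They were 1.24 to 1.25 at 0 h and 1.31 to 1.32 at 24 h. In RBBP5-FKBP cells this value was 1.05 at 24 h against 1.16 to 1.17 at 0 h, and in dKO cells 1.03 at 48 h against 1.14 at 0 h. Of the members' pooled reads, 9.04%, 6.09% and 3.85% held a T>C mismatch in replicates 1, 2 and 3, against 10.0% to 11.2% at 0 h, and over all genes the share at 8 h ranged from 5.51% to 13%. Without replicate 1 at 8 h, 14 members were called lower, and calls over all genes rose too, above the 1018 lower with all libraries. The members' median was then −1.03 (all genes −1.05), and without replicate 3 at 8 h it was −0.35 (all genes −0.42). Without replicate 2 at 8 h or replicate 1 at 0 h, 0 members were called, and without replicate 2 or 3 at 0 h, 1 was. In each of these fits fewer than 1018 of all genes were called lower.

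At 2 h in DPY30-mAID cells, 0 of 39 members were called by edgeR or DESeq2, and 0 had an unadjusted p under 0.05. Of all genes, 0% were called. At 24 h only Psmg3, the chaperone, was lower. Its T>C reads were at 17.0, 24.1 and 13 scaled CPM at 0 h and at 4.41, 7.46 and 4.61 at 24 h, without overlap (log2 fold change −1.72, SE 0.51, adjusted p = 0.0467). That was 1 of 39 members, beside 2.72% of all genes, and without any 1 of the 6 libraries the count was 0. Psmg3 also missed the threshold with the replicate number as a block (−1.70, adjusted p = 0.0515) and without the filter on low counts (−1.72, adjusted p = 0.0657). With the scaling from T>C reads, 5 members were called, 4 of them higher. The members' median was 0.10, and that of all genes was −0.14.

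Between 8 and 24 h, T>C reads of 6 of 39 members rose: 4 of the α ring (Psma2, Psma3, Psma5 and Psma6) and 2 of the β ring (Psmb3 and Psmb4). Of all genes, 17.1% were called higher. Psma6 was at 28.8, 17.7 and 17.8 scaled CPM of T>C reads at 8 h and at 57.3, 50.3 and 54.9 at 24 h (log2 fold change 1.33, SE 0.36, adjusted p = 0.00682). Psma3 was at 45.8, 27.0 and 10.4 and then at 64.9, 69.7 and 62.0 (1.23, SE 0.36, adjusted p = 0.0124). Psma2 was at 43.8, 37.3 and 27.8 and then at 71.3, 68.7 and 79.6 (1.01, SE 0.32, adjusted p = 0.0203). In none of these 3 genes did the libraries at 8 and 24 h overlap. With the scaling from T>C reads, the count was 1 higher and 1 lower and the members' median went from 0.75 to 0.22. Psma3 was then still called, while Psma6 (0.69, adjusted p = 0.0891) and Psma2 (0.36, adjusted p = 0.298) were not. The count was 20 without replicate 1 at 8 h, beside 1829 of all genes higher (1081 with all libraries). The median was then 1.17 (all genes 0.90), and without replicate 3 at 8 h it was 0.49 (all genes 0.28). The count was 1 without replicate 2 at 8 h, beside 721 of all genes higher. It was 2 or 3 without any 1 of the libraries at 24 h, beside 676 to 795.

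Loss of RBBP5 gave lower T>C reads in 9 of 38 members at 24 h (23.7%), beside 25.9% of all 4761 genes tested. Of these, 5 were of the lid (Psmd7, Psmd11, Psmd12, Psmd13 and Psmd14), 2 of the α ring (Psma2 and Psma4), with Psmb4 of the β ring and Psmd1 of the base. The members' median was −0.82, and that of all genes was −0.91. At 2 h, 0 of 38 members were called by either tool, with 1 at an unadjusted p under 0.05, beside 0.252% of all genes. At 8 h, 0 were called by edgeR, 2 by DESeq2, and 6 had an unadjusted p under 0.05, beside 7.65% of all genes.

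In RBBP5-FKBP cells, Psmd13 of the lid was at 14.6, 6.75 and 9.24 scaled CPM of T>C reads at 0 h and at 1.31, 0.935 and 1.44 at 24 h (log2 fold change −2.99, SE 0.88, adjusted p = 0.00798). Psmd7 was at 72.8, 89.8 and 76.1 and then at 58.1, 39.7 and 38.8 (−0.80, SE 0.24, adjusted p = 0.00871). Psmd11 was at 57.3, 56.8 and 65.4 and then at 36.7, 30.4 and 33.5 (−0.83, SE 0.25, adjusted p = 0.01). All 3 genes were lower at 24 h in every library. When the scaling was taken from the T>C reads, Psmd7 and Psmd11 turned to 0.11 and 0.065, Psmd13 stayed at −2.10 without a call (adjusted p = 0.256), and 0 members were called. Without replicate 1 at 24 h, 4 members were called, beside 907 of all genes lower (1231 with all libraries).

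In dKO cells, members were called lower in T>C reads at 24 and 48 h. At 24 h of auxin, 19 of 37 members were lower (51.4%), beside 42.2% of all 5965 genes tested, and at 48 h 31 of 37 were (83.8%), beside 72.3%. None were higher at these times. The members' medians were −0.83 and −1.35, and those of all genes were −0.80 and −1.29. At 48 h the calls were 7 of 7 in the α ring, 7 of 8 in the base, 4 of 5 in the β ring, 5 of 8 in the lid, 5 of 6 chaperones and 3 of 3 activators or inhibitors. At 2, 4 and 8 h, 0 of 37 members were called by edgeR or DESeq2. At an unadjusted p under 0.05 there were 0, 4 and 6, and of all genes 0%, 0.453% and 1.14% were called.

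Psmd14, the deubiquitinase of the lid, was at 16.8 and 17.2 scaled CPM of T>C reads in dKO cells at 0 h, at 6.37 and 4.62 at 24 h (log2 fold change −1.62, SE 0.25, adjusted p = 3.21e-07) and at 4.47 and 3.18 at 48 h (−2.14, SE 0.27, adjusted p = 8.02e-11). Psma4 of the α ring went from 11 and 18.0 to 5.94 and 5.07 at 24 h (−1.40, SE 0.26, adjusted p = 1.52e-05). Psmd11 went from 14.2 and 15.7 to 6.65 and 6.26 at 24 h (−1.21, SE 0.24, adjusted p = 5.11e-05). At 24 h the treated libraries lay below the untreated ones in all 3 genes. At 48 h, Psmd3 of the lid was at 8.80 and 9.98 against 25.8 and 32.2 at 0 h (−1.63, SE 0.20, adjusted p = 6.65e-11), and Psmd7 was at 5.92 and 5.06 against 15.7 and 16.9 (−1.57, SE 0.25, adjusted p = 9.26e-08). These did not overlap either. With the scaling taken from T>C reads, 3 members were called at 24 h (2 lower and 1 higher) and 1, lower, at 48 h. Psmd14 kept its call at both times (−0.83, adjusted p = 0.0134, and −0.84, adjusted p = 0.0249), while Psma4 and Psmd11 at 24 h and Psmd3 and Psmd7 at 48 h lost theirs. Without replicate 2 at 0 h, 12 were called at 24 h.

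The change of T>C reads in dKO cells was compared with that in DPY30-mAID cells at the same time by the interaction in a joint fit. At 24 h only Psma2 of the α ring was called, with a difference of −1.55 on the log2 scale (SE 0.42, adjusted p = 0.0278). That was 1 of 40 members beside 3.22% of all 6901 genes. It was at 15.0 and 15.6 scaled CPM of T>C reads at 0 h and at 7.07 and 8.94 at 24 h in dKO cells, and at 56.6, 47.4 and 40.7 and then at 71.3, 68.7 and 79.6 in DPY30-mAID cells. The libraries moved in opposite directions in the 2 lines. The members' median difference was −1.0, and that of all genes was −0.71. In the α ring it was −1.34, with a range of −1.55 to −0.40, so Psma2 lay at the end of a difference that its ring shared. DESeq2 called 5 members, and 0 were called with the scaling from T>C reads. Without any 1 of 7 of the 10 libraries (replicate 2 or 3 at 0 h or replicate 3 at 24 h in DPY30-mAID cells, or any dKO library), 0 were called. At 8 h, 0 of 40 members were called by either tool, 0 had an unadjusted p under 0.05, and 0.290% of all genes were called.

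**Figure D1:**
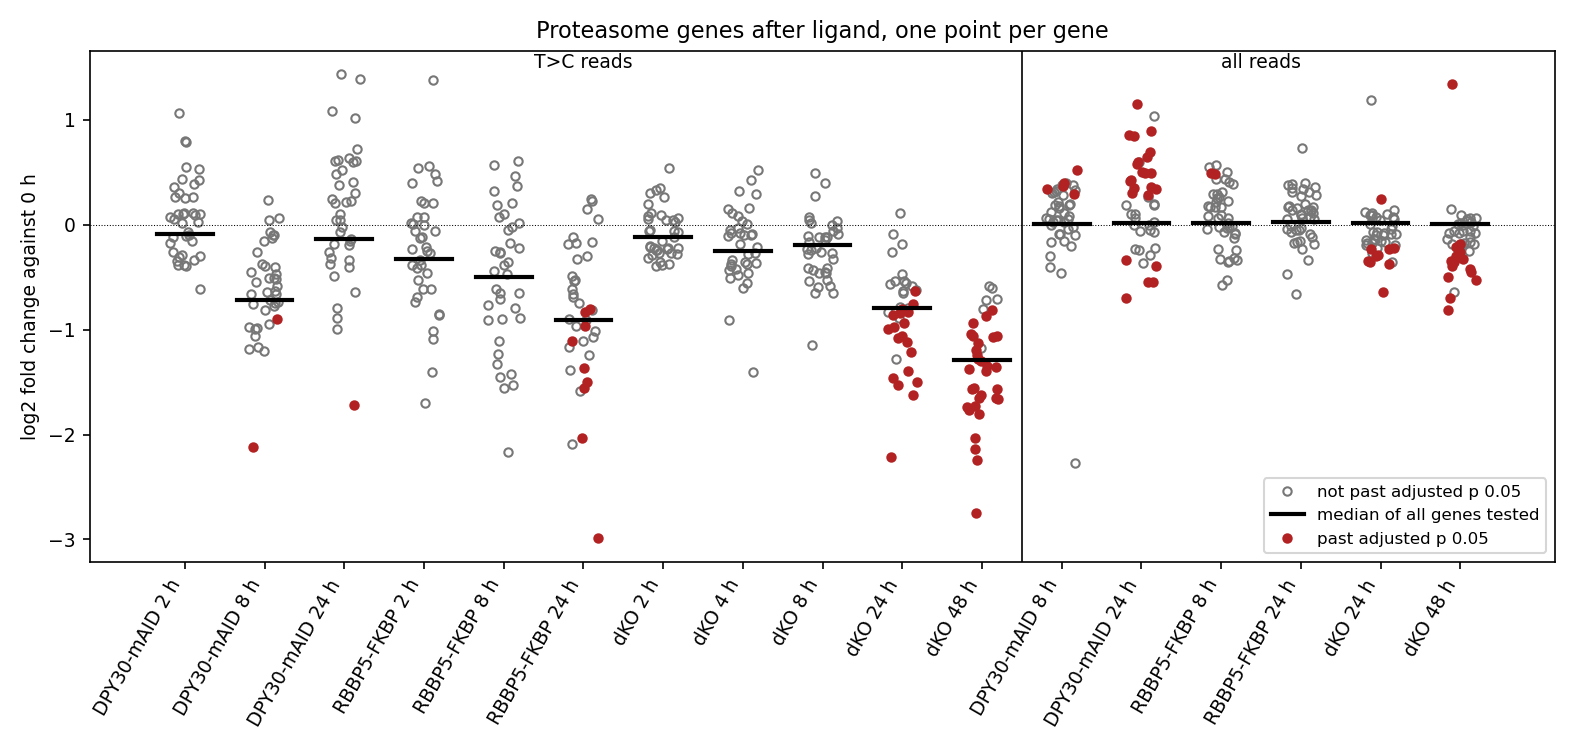
Log2 fold changes against 0 h of the members in T>C reads and in total reads, by line and time, with the median of all genes tested. Filled points passed an adjusted p of 0.05. In T>C reads the members lie around the median of all genes, with a median of −1.35 against −1.29 in dKO cells at 48 h, while total reads spread around 0.

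In total reads of DPY30-mAID cells, more members were higher than lower. At 24 h of auxin 18 of 43 members were higher (41.9%), beside 15.9% of all 9848 genes, and 5 were lower (11.6%), beside 17.0%. All 7 genes of the α ring rose, as did 4 of the 6 genes of the β ring (Psmb1, Psmb3, Psmb4 and Psmb6). Of the lid, 3 of 8 rose (Psmd6, Psmd8 and Psmd13) and 2 fell (Psmd3 and Psmd11). The ATPase gene Psmc6 and the ubiquitin receptor gene Psmd4 rose, as did the chaperone genes Psmd10 and Psmg2. Psmg3 and both of the caps Psme3 and Psme4 fell. The members' median was 0.19, and that of all genes was 0.01. Marker sums moved too. The 5 neural markers summed to between 102 and 126 scaled CPM at 0 h and between 36.3 and 53.6 at 24 h. The 4 trophectoderm markers summed to between 39.6 and 48.6 and then between 16.4 and 27.7. Of these, Cdx2 was at 0 at 2 and 8 h as well as at 24 h. At 8 h in DPY30-mAID cells the ES cell sum lay between 3811 and 3917, below 4418 to 4808 at 0 h. In RBBP5-FKBP cells the trophectoderm sum lay between 35.8 and 45.1 at 0 h, between 13 and 22.5 at 8 h and between 9.6 and 14.0 at 24 h. The other sums were higher at 8 h than at 0 h in RBBP5-FKBP cells, without overlap: 4219 to 4431 against 3635 to 3986 for ES cell, 84.1 to 103 against 34.0 to 57.9 for primitive endoderm and 94.7 to 108 against 65.3 to 79.1 for neural markers. In dKO cells the neural sum lay between 38.6 and 42.2 at 0 h and between 25.6 and 32.6 at 48 h, and the trophectoderm sum between 32.9 and 33.2 and then between 45.9 and 54.8. The part of these moves in the members' values was not tested.

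Psma7 of the α ring was at 207, 212 and 216 scaled CPM at 0 h and at 344, 389 and 404 at 24 h (log2 fold change 0.84, SE 0.12, adjusted p = 1.03e-07). Psmb3, a structural β subunit, went from 198, 227 and 290 to 362, 398 and 363 (0.65, SE 0.12, adjusted p = 2.37e-05). Psmc6 went from 61.1, 84.8 and 80.4 to 123, 157 and 141 (0.89, SE 0.17, adjusted p = 4.7e-05). Groups did not overlap in any of these. Of those that fell, Psmd3 went from 389, 373 and 340 to 261, 248 and 243 (−0.55, SE 0.11, adjusted p = 6.05e-05). Psme4, which codes for the cap PA200, went from 234, 260 and 249 to 175, 154 and 178 (−0.55, SE 0.12, adjusted p = 0.000373). Psmd11 went from 713, 779 and 722 to 553, 556 and 575 (−0.40, SE 0.092, adjusted p = 0.000641). These did not overlap either.

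At 8 h in DPY30-mAID cells, total reads of 5 of 43 members rose, all but Psmb3 of the base (Psmc3, Psmc4, Psmd1 and Psmd2), beside 5.32% of all genes. None fell, beside 7.85%. The ATPase gene Psmc3 was at 154, 175 and 140 scaled CPM at 0 h and at 193, 211 and 268 at 8 h (log2 fold change 0.52, SE 0.14, adjusted p = 0.0084). Psmd1 went from 862, 831 and 809 to 947, 1068 and 1058 (0.30, SE 0.089, adjusted p = 0.0185). Psmc4 went from 285, 282 and 214 to 342, 337 and 347 (0.40, SE 0.12, adjusted p = 0.0186). Groups did not overlap, but the count was 1 without replicate 3 at 0 h, 3 without replicate 2 at 0 h, and 2 without replicate 3 at 8 h. Without replicate 2 at 8 h, 2 rose and 1 fell.

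In RBBP5-FKBP cells, total reads of Psmd2 and Psmc3, both of the base, rose at 8 h (2 of 43 members), beside 4.20% of all 9676 genes, and 0 fell, beside 4.96%. Psmd2 was at 482, 453 and 534 scaled CPM at 0 h and at 677, 754 and 626 at 8 h (log2 fold change 0.49, SE 0.12, adjusted p = 0.012). Psmc3 was at 228, 169 and 168 and then at 265, 295 and 232 (0.49, SE 0.15, adjusted p = 0.0412). Neither gene overlapped between times, and Psmc3 was at 0.48 without reads that mapped to several places (adjusted p = 0.0525). The count was 7 without replicate 1 at 0 h (6 higher and 1 lower), 8 without replicate 3 at 8 h (6 higher and 2 lower), 0 without replicate 2 at 0 h and 1 without any 1 of the other libraries. At 24 h, 0 of 43 members were called by edgeR or DESeq2, 6 had an unadjusted p under 0.05, and 7.34% of all genes were called. Without replicate 1 at 0 h, 1 was called.

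In dKO cells, more members were lower than higher in total reads, and most did not pass the test. At 24 h, 9 of 43 members fell (20.9%), beside 6.02% of all 11394 genes, and 1 rose, beside 5.15%. At 48 h, 15 fell (34.9%), beside 7.93%, and 1 rose, beside 6.59%. The falls at 48 h were in 5 of 7 genes of the α ring, 5 of 8 of the lid, 2 of 9 of the base and 1 of 6 of the β ring, with the chaperone gene Psmd5 and the immune form Psmb10. The members' median was −0.10 at 24 h and −0.17 at 48 h, and that of all genes 0.02 and 0.01.

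Psmd14 was at 353 and 369 scaled CPM in dKO cells at 0 h, at 241 and 221 at 24 h (log2 fold change −0.64, SE 0.075, adjusted p = 5.8e-05) and at 204 and 209 at 48 h (−0.81, SE 0.075, adjusted p = 4.72e-06). Psma1 of the α ring was at 402 and 372, at 296 and 311 (−0.35, SE 0.064, adjusted p = 0.0026) and at 291 and 287 (−0.42, SE 0.064, adjusted p = 0.000423). Psmd7 went from 304 and 284 to 229 and 226 at 24 h (−0.37, SE 0.074, adjusted p = 0.00505), and Psma4 from 424 and 440 to 311 and 323 at 48 h (−0.45, SE 0.064, adjusted p = 0.00027). The treated libraries of these 4 genes all lay below the untreated ones. Psmd8 of the lid, at 215 and 203, rose to 239 and 257 at 24 h (0.25, SE 0.069, adjusted p = 0.0321). The testis form Psma8 rose from 2.67 and 1.2 to 5.34 and 4.34 at 48 h (1.34, SE 0.40, adjusted p = 0.0342), which is 18 and 9 reads against 37 and 30. Neither rise was called by DESeq2 (adjusted p = 0.0512 for Psmd8 and 0.0949 for Psma8). Counts depended on the libraries: at 24 h there were 6 without either library at 0 h, and 3 and 2 without replicate 1 and 2 at 24 h. At 48 h there were 9 without replicate 2 at 0 h and 10 without replicate 1 at 48 h.

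Summed over the 48 genes, members took 0.898% to 0.939% of all reads in DPY30-mAID cells at 0 h, 0.965% to 0.985% at 2 h, 1.08% to 1.10% at 8 h and 1.00% to 1.07% at 24 h. In RBBP5-FKBP cells they took 0.973% to 1.03% at 0 h, 0.995% to 1.05% at 2 h, 1.10% to 1.17% at 8 h and 1.06% to 1.10% at 24 h. All libraries at 8 and 24 h lay above those at 0 h in both lines. The libraries at 2 h lay above 0 h in DPY30-mAID cells and overlapped with 0 h in RBBP5-FKBP cells. In dKO cells the sum was 0.993% to 1.01% at 0 h, 0.987% at 2 h, 0.995% to 0.999% at 4 h, 0.997% to 1.02% at 8 h and 0.938% to 0.944% at 24 h, with 0.901% to 0.933% at 48 h, below 0 h. Without reads that mapped to several places, all libraries at 8 and 24 h again lay above 0 h in DPY30-mAID and RBBP5-FKBP cells, and those at 24 and 48 h below 0 h in dKO cells. Library totals are set to a common sum here, so the total RNA per cell is not in these values.

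**Figure D2:**
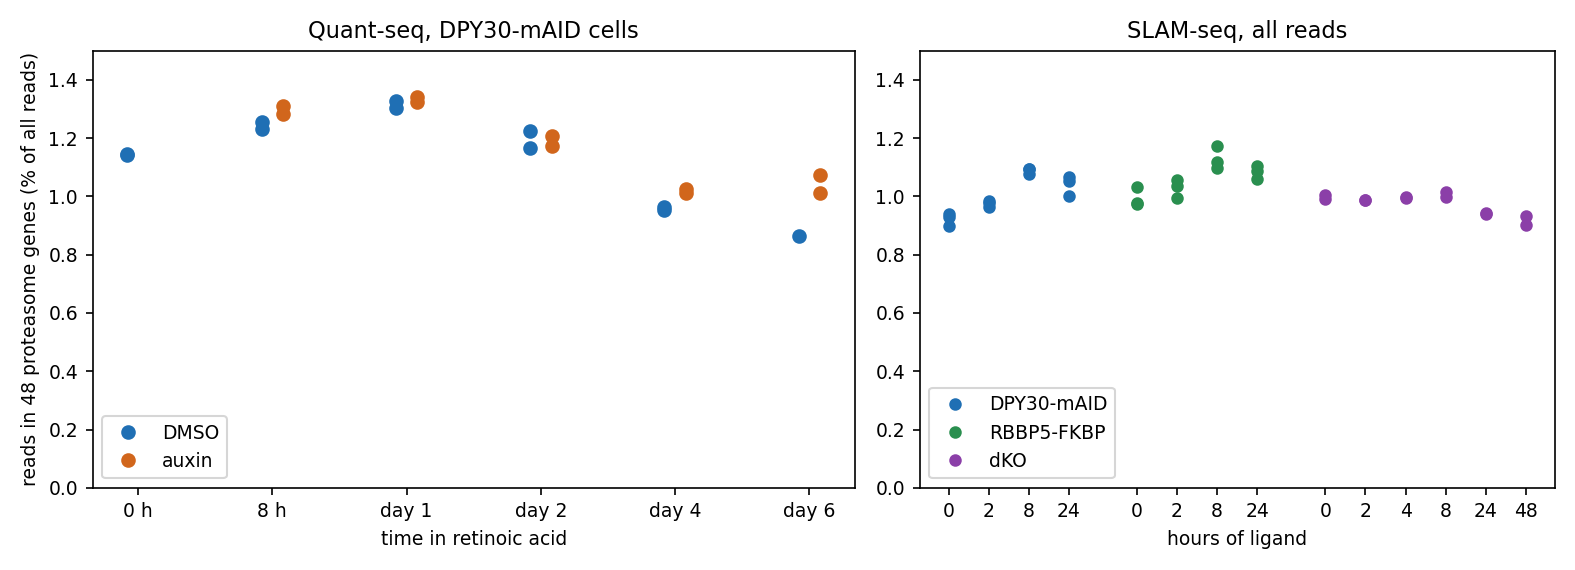
Reads of the 48 proteasome genes as a percentage of all reads of each library, by line and time, with 1 point per library. The sum is higher at 8 h than at 0 h in DPY30-mAID and RBBP5-FKBP cells, lower at 24 and 48 h in dKO cells, and in RA with DMSO it goes from about 1.15% to 1.33% at day 1 and 0.866% at day 6.

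At 0 h the dKO cells were set beside DPY30-mAID cells, from which they were made. Of 43 members, 17 were lower (39.5%), beside 21.6% of all 11483 genes, and 16 were higher (37.2%), beside 24.7%. Psmg4, a chaperone, was at 112 and 117 scaled CPM against 41.6, 18.1 and 21.9 (log2 difference 2.10, SE 0.19, adjusted p = 2.11e-11). Psmc6 was at 204 and 211 against 61.1, 84.8 and 80.4 (1.44, SE 0.13, adjusted p = 4.54e-11). Psmd3 was at 613 and 659 against 389, 373 and 340 (0.78, SE 0.082, adjusted p = 7.83e-10). Of the lower ones, Psmd11 was at 391 and 385 against 713, 779 and 722 (−0.94, SE 0.081, adjusted p = 5.8e-12). Psmb3 was at 95.6 and 78.1 against 198, 227 and 290 (−1.47, SE 0.13, adjusted p = 9.94e-12). Psmd9, a chaperone of the base, was at 18.7 and 20.6 against 66.1, 60.0 and 60.7 (−1.67, SE 0.21, adjusted p = 2.45e-08). No groups overlapped. Read length differs between these libraries too, and for Psmb3 the share of reads that mapped to several places went from 0.4% to 88.8% with it, so genotype and read length cannot be told apart.

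RA treatment was used to follow the cells as they left the ES cell state. In DMSO, many members were higher early and lower late. At 8 h, 10 of 44 members were higher (22.7%), beside 9.21% of all 11415 genes, and 1 was lower, beside 9.08%. At day 1, 18 were higher (40.9%), beside 26.2%, and 10 were lower (22.7%), beside 25.5%. At day 2, 8 were higher (18.2%), beside 25.1%, and 9 lower (20.5%), beside 22.9%. At day 4, 25 were lower (56.8%), beside 25.6%, and at day 6, 31 were (70.5%), beside 26.1%. On days 4 and 6, 0 were higher by edgeR, beside 28.7% and 29.1%. The members' medians were 0.20, 0.24, 0.07, −0.33 and −0.58 from 8 h to day 6, and those of all genes lay between 0 and 0.06. Leaving out 1 library moved the median at day 2 to between 0.0033 (without replicate 2 at 0 h) and 0.11, and that at day 1 to between 0.26 and 0.36. Summed, members took 1.15% and 1.14% of all reads at 0 h, 1.23% and 1.25% at 8 h, 1.33% and 1.31% at day 1, 1.17% and 1.22% at day 2, 0.965% and 0.955% at day 4 and 0.866% at day 6. The sum thus was highest at day 1 and lower than at 0 h from day 4 on. With auxin it was 1.01% and 1.03% at day 4 and 1.01% and 1.07% at day 6. All 5 times were compared with the same DMSO libraries at 0 h, and day 6 is 1 sample, assumed to vary like the other groups.

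Marker lists changed over these days. The summed scaled CPM of 7 ES cell markers went from 5055 and 5371 at 0 h to 948 at day 6 in DMSO. Of 6 primitive endoderm markers, 3 were at a mean of at least 1 CPM at 0 h and all 6 at day 6, and their sum went from 33.1 and 33.9 to 3452. Of 4 trophectoderm markers, 2 and 4 were at that level, and their sum went from 33.5 and 36.8 to 1701, with Gata3 at 0 in the libraries of 0 h. Of 5 neural markers, 3 were at that level at both times, and their sum went the other way, from 112 and 124 to 25.2, with Neurog2 at 0 at 0 h and Pax6 and Neurog2 at 0 at day 6. The part of these changes in the members' values was not tested. In bulk RNA, fewer cells of a type and less RNA per cell cannot be told apart.

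At 8 h of RA the rises were in 3 of 7 genes of the α ring, 2 of 6 of the β ring, 3 of 8 of the lid, 1 of 9 of the base and 1 of 7 chaperones. Psmd8 of the lid was at 441 and 450 scaled CPM at 0 h and at 613 and 593 at 8 h (log2 fold change 0.43, SE 0.084, adjusted p = 0.000504). Psma6 of the α ring went from 359 and 387 to 512 and 561 (0.53, SE 0.10, adjusted p = 0.000606), and Psmd14 from 282 and 319 to 403 and 417 (0.45, SE 0.11, adjusted p = 0.00617). In all 3, both treated libraries were above both untreated ones. Psme4, the gene of the cap PA200, was the member that fell, from 181 and 198 to 119 and 131 (−0.60, SE 0.14, adjusted p = 0.00243). The count of 11 members was 6 and 4 without replicate 1 and 2 at 0 h, and 3 without replicate 2 at 8 h.

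Day 1 of RA was the peak for several subunits. The catalytic subunit gene Psmb5, which codes for the chymotrypsin-like site, was at 327 and 294 scaled CPM against 143 and 131 at 0 h (log2 fold change 1.18, SE 0.13, adjusted p = 2.9e-08). The other catalytic gene measured, Psmb6, was at 368 and 339 against 191 and 154 (1.04, SE 0.13, adjusted p = 1.29e-07). Psmd8 was at 818 and 797 against 441 and 450 (0.86, SE 0.084, adjusted p = 3.45e-09). Both libraries of day 1 lay above those of every other DMSO time in these 3 genes. Of the α ring 5 of 7 genes rose, and of the chaperones 4 of 7. The immune form Psmb9 rose too, with 26 and 42 reads against 10 and 7 (2.31, SE 0.48, adjusted p = 0.000222), and was back at 11 and 11 reads on day 4. Of the 6 genes whose promoter windows hold TGACNNNGC, Psmb5, Psmb6, Psmc6 and Psmd9 were called higher at day 1, Psme4 was called lower and Psmd12 was not called, and a part of these letters in the changes was not tested.

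Some members fell at day 1 instead. Psmd3 of the lid was at 458 and 392 scaled CPM against 815 and 743 at 0 h (log2 fold change −0.87, SE 0.10, adjusted p = 5.39e-08). Psme4 was at 73.8 and 94.9 against 181 and 198 (−1.17, SE 0.14, adjusted p = 1.6e-07). Psmd7, which pairs with Psmd14 in the lid, was at 330 and 301 against 434 and 467 (−0.51, SE 0.10, adjusted p = 0.000178). Groups did not overlap. The others were Psma2, Psmb2, Psmd1, Psmd2, Psme3, Psmf1 and Psmg2, so that 3 of the 4 activators or inhibitors tested were lower.

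At day 2 the rises were smaller. Psma7 was at 361 and 427 scaled CPM against 255 and 236 at 0 h (log2 fold change 0.68, SE 0.11, adjusted p = 2.04e-05), Psmb6 was at 240 and 285 against 191 and 154 (0.61, SE 0.13, adjusted p = 0.000265), and Psmd8 was at 608 and 598 against 441 and 450 (0.44, SE 0.084, adjusted p = 0.000114). Psme4 stayed lower at 93.5 and 88.5 against 181 and 198 (−1.06, SE 0.14, adjusted p = 5.86e-07). Psma2 was at 330 and 343 against 503 and 551 (−0.65, SE 0.13, adjusted p = 0.000176), and Psmd7 at 315 and 319 against 434 and 467 (−0.51, SE 0.10, adjusted p = 0.000221). None of these groups overlapped. Without either library at 0 h or without replicate 1 at day 2, 11 members were called in place of 17.

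On days 4 and 6 the falls reached every role. At day 4 they were in 7 of 9 genes of the base, 4 of 8 of the lid, 4 of 7 of the α ring, 2 of 6 of the β ring, 3 of 7 chaperones, 3 of 4 activators or inhibitors and 2 of 3 immune or testis forms. At day 6 they were in 7, 5, 6, 4, 5, 2 and 2. Psmd7 was at 263 and 260 scaled CPM at day 4 against 434 and 467 at 0 h (log2 fold change −0.79, SE 0.10, adjusted p = 4.46e-07) and at 214 at day 6 (−1.08, SE 0.13, adjusted p = 1.37e-07). Psmd1 was at 644 and 665 at day 4 against 1008 and 1012 (−0.63, SE 0.083, adjusted p = 4.76e-07), and Psmd14 was at 189 and 172 against 282 and 319 (−0.73, SE 0.12, adjusted p = 8.9e-06). All libraries of day 4 were below those of 0 h in these 3 genes. At day 6, Psma6 was at 177 against 359 and 387 (−1.07, SE 0.14, adjusted p = 2.51e-07), and Psmd13 was at 375 against 772 and 812 (−1.08, SE 0.16, adjusted p = 2.28e-06). Of the immune forms, Psmb10 had 14 and 22 reads at day 4 and 15 at day 6, against 63 and 52 at 0 h (−1.70 with SE 0.29 and adjusted p = 1.94e-05, and −2.07 with SE 0.38 and adjusted p = 5.18e-05).

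**Figure D3:**
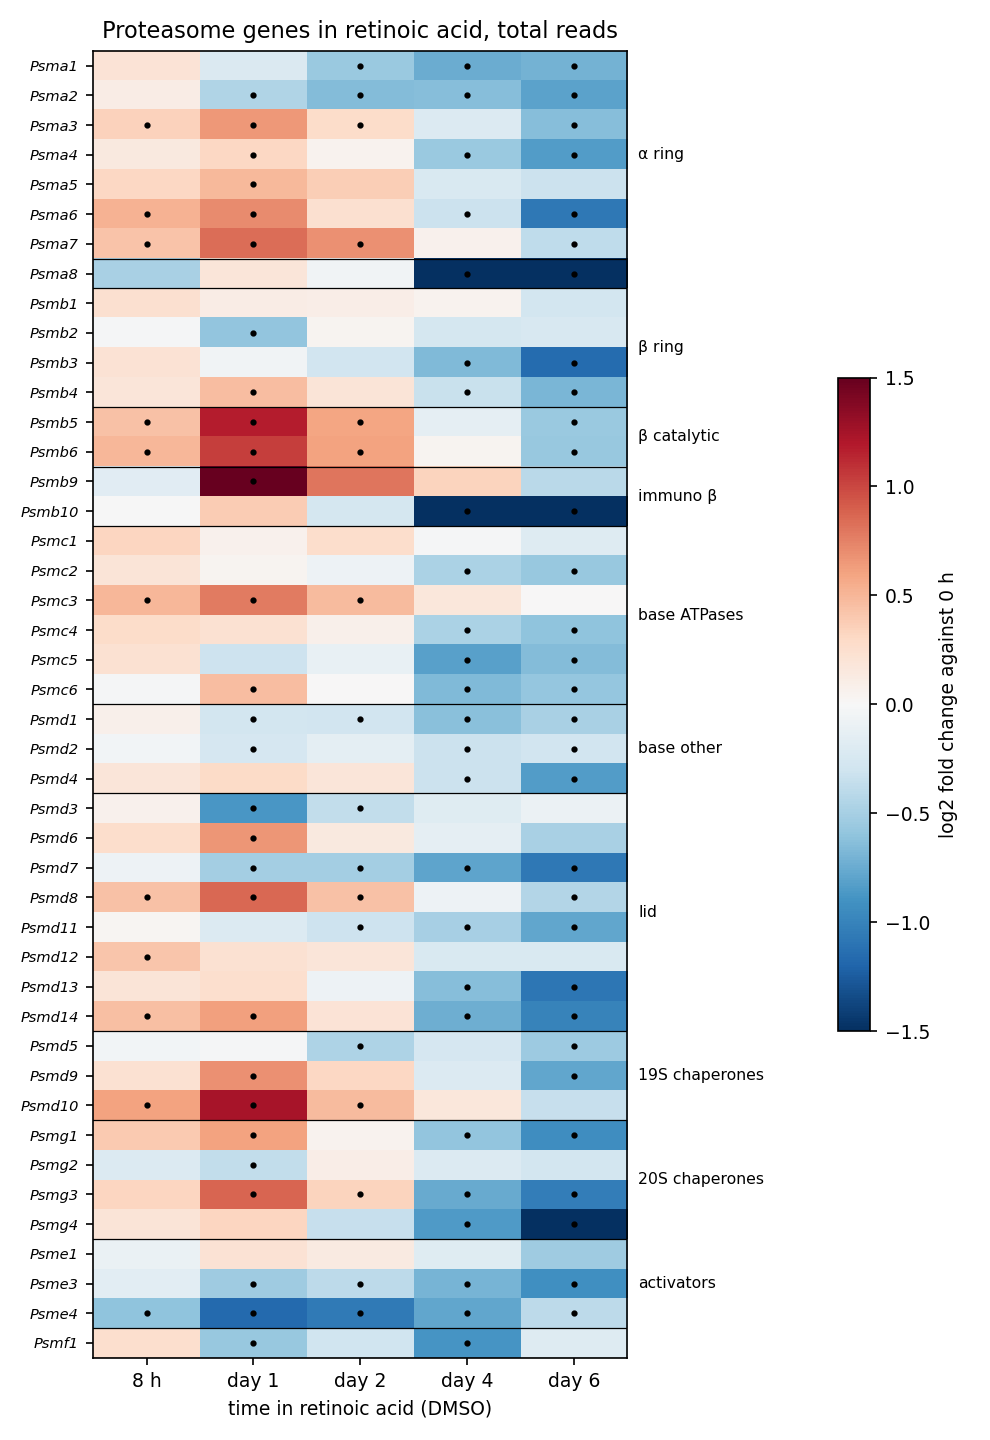
Log2 fold change of each member against DMSO 0 h at 8 h and days 1, 2, 4 and 6 of RA with DMSO, by role. Colours stop at ±1.5 and dots mark an adjusted p under 0.05. The medians of the α and β rings go from 0.49 and 0.29 at day 1 to −0.71 and −0.57 at day 6, while Psme4 is lower from 8 h on.

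**Figure D4:**
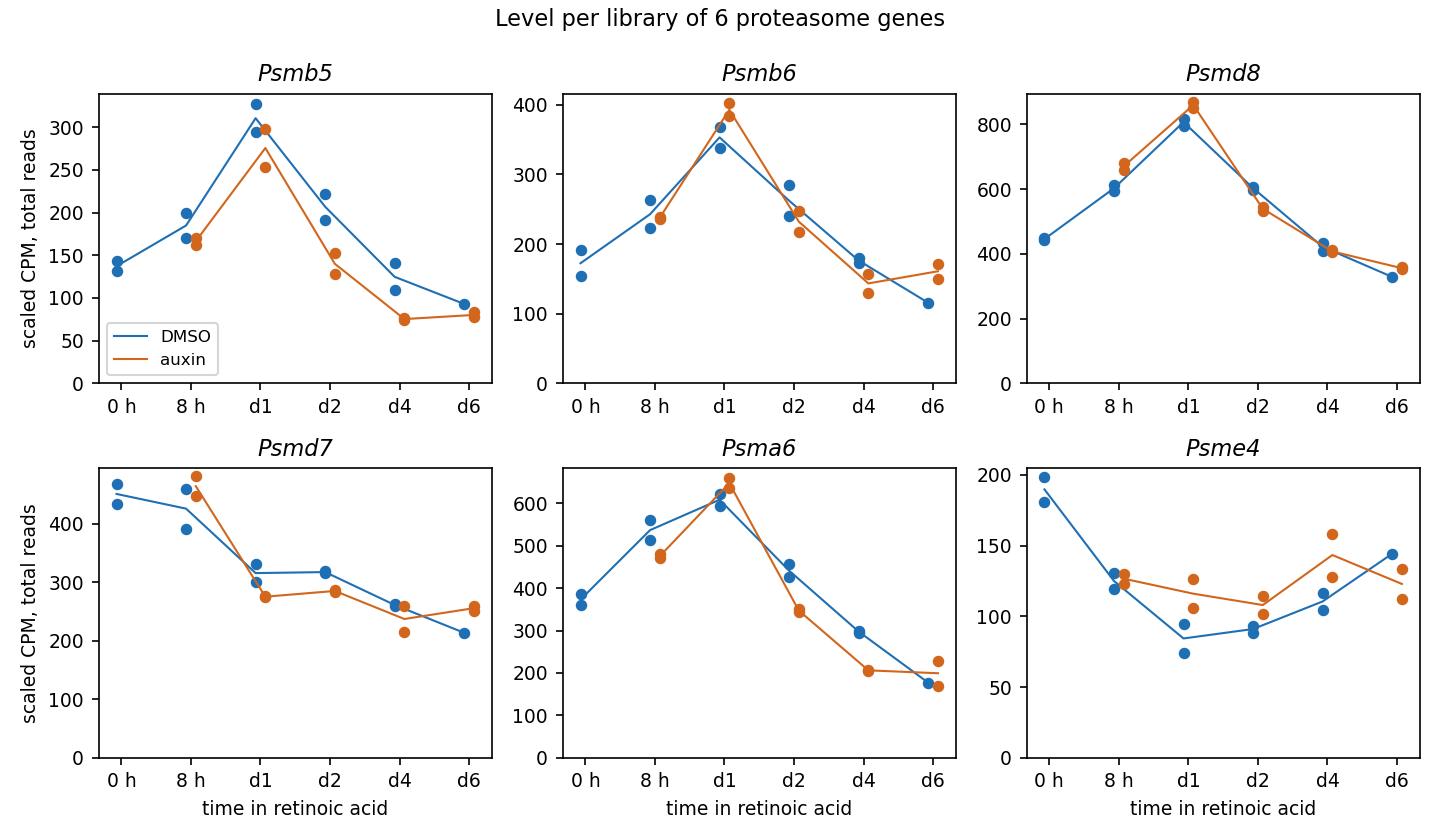
Scaled CPM of Psmb5, Psmb6, Psmd8, Psmd7, Psma6 and Psme4 in each library over RA treatment with DMSO or auxin. Psmb5, Psmb6, Psmd8 and Psma6 peak at day 1, Psmd7 goes down over the days, and Psme4 is lowest at days 1 and 2 in DMSO.

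Auxin during RA treatment was compared with DMSO at the same time. From 0 to 12 of the 44 members were called at a time, the most at day 4. At 8 h 0 of 44 were called by edgeR or DESeq2, with 0 at an unadjusted p under 0.05, beside 0.762% of all genes. At day 1, 2 were higher (4.27% of all genes were) and 0 lower (2.97%). At day 2, 3 were higher (5.96%) and 5 lower (7.39%). At day 4, 2 were higher (7.78%) and 10 lower (10.4%), and at day 6, 4 were higher (7.96%) and 0 lower (10.4%). The lower members at day 4 (22.7% of 44) were Psma3, Psma6 and Psma7 of the α ring, Psmb1, Psmb3 and Psmb5 of the β ring, Psmc4 and Psmd4 of the base, Psmd13 of the lid and the chaperone gene Psmg4. Marker sums differed too. At day 1, with auxin against DMSO, they were 96.8 to 98.9 against 59.2 to 67.0 scaled CPM (neural) and 49.1 to 54.3 against 35.1 to 41.4 (primitive endoderm). Trophectoderm (13.2 to 15.3 against 21.8 to 26.1) and ES cell sums (3015 to 3027 against 3170 to 3359) were lower. At day 2, primitive endoderm (223 to 246 against 395 to 401), trophectoderm (178 to 206 against 244 to 284) and ES cell sums (1754 to 1862 against 1873 to 1958) were lower. The neural sums overlapped. At day 4, where most calls were, the primitive endoderm markers were at 548 and 572 scaled CPM with auxin against 1588 and 1608 with DMSO, and the ES cell markers were at 1359 and 1400 against 1933 and 1943. The neural markers, at 40.3 and 67.5 against 60.8 and 62.4, and the trophectoderm markers, at 460 and 570 against 555 and 576, overlapped. At day 6 the primitive endoderm markers were at 601 and 638 scaled CPM with auxin against 3452 with DMSO, the trophectoderm markers at 1145 and 1351 against 1701, the ES cell markers at 1134 and 1142 against 948, and the neural markers at 38.1 and 59.8 against 25.2. Their part in the members' values was not tested.

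Psmg2, a chaperone that starts the assembly of the α ring, was called higher with auxin at each time from day 1 on. With auxin it was at 95.1 and 102 scaled CPM at day 1, 143 and 139 at day 2, 116 and 117 at day 4 and 107 and 113 at day 6, against 63.6 and 69.0, 89.8 and 93.8, 73.3 and 74.4, and 70.6 with DMSO. The auxin libraries were above the DMSO libraries at all 4 times. The log2 differences were 0.57 (SE 0.14, adjusted p = 0.0125), 0.62 (SE 0.13, adjusted p = 0.00147), 0.66 (SE 0.13, adjusted p = 0.000683) and 0.64 (SE 0.16, adjusted p = 0.00737). DESeq2 called Psmg2 at days 2 and 4 but not at day 1 (adjusted p = 0.052) or day 6 (adjusted p = 0.0502). At day 1, it also lost its edgeR call without any 1 of the 4 libraries. At 8 h it was at 95.4 and 80.0 with auxin and at 74.6 and 74.1 with DMSO, and was not called.

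The α ring gene Psma7 was lower with auxin at day 2, with 278 and 245 scaled CPM against 361 and 427 (log2 difference −0.59, SE 0.12, adjusted p = 0.000844), and at day 4, with 146 and 166 against 244 and 268 (−0.71, SE 0.12, adjusted p = 0.000111). Psmb5 was lower at the same times, with 152 and 128 against 192 and 222 (−0.56, SE 0.13, adjusted p = 0.00524) and 74.4 and 76.0 against 141 and 109 (−0.73, SE 0.15, adjusted p = 0.000768). Neither gene overlapped between auxin and DMSO. Without reads that mapped to several places, Psmb5 at day 2 was at −0.29 with adjusted p = 0.483. Psma3 at day 4 was at 274 and 324 against 442 and 422 (−0.53, SE 0.098, adjusted p = 0.000282). Without reads that mapped to several places, which were 84.4% of its reads in the short-read libraries, Psma3 was at −0.47 and not called (adjusted p = 0.062). Psmd14 at day 2 was at 241 and 269 against 351 and 343 (−0.44, SE 0.12, adjusted p = 0.0109).

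Psmd3 was higher with auxin at day 1, at 558 and 543 scaled CPM against 458 and 392 (log2 difference 0.37, SE 0.10, adjusted p = 0.0231), and at day 2, at 793 and 694 against 588 and 614 (0.31, SE 0.098, adjusted p = 0.0383). At day 2 the difference was 0.30 with DESeq2 (adjusted p = 0.0581) and 0.28 without reads that mapped to several places (adjusted p = 0.0583), so the call was lost with the size little changed. Psmd1 was higher at day 2, at 1013 and 1024 against 802 and 848 (0.30, SE 0.083, adjusted p = 0.0141), and at day 4, at 851 and 838 against 644 and 665 (0.37, SE 0.083, adjusted p = 0.00239). These did not overlap. At day 6, where DMSO is 1 sample, Psmd13 was at 452 and 644 against 375 (0.54, SE 0.16, adjusted p = 0.0167) and Psmd11 at 497 and 569 against 414 (0.36, SE 0.12, adjusted p = 0.0304). Psmd11 was not called with DESeq2 (adjusted p = 0.0606), and without reads that mapped to several places, which were 65.1% of its reads in the short-read libraries, it was at 0.16 (adjusted p = 0.503). Without replicate 1 with auxin at day 6, 16 members were called (13 higher and 3 lower), and without replicate 2, 2 were. At day 1, the 2 calls became 0 without either auxin library or DMSO replicate 2, and 1 without DMSO replicate 1. At day 2, the 8 calls became 4 without either auxin library or DMSO replicate 1 and 2 without DMSO replicate 2, and at day 4 the 12 became 6 without auxin replicate 1 or either DMSO library.

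Other genes of the ubiquitin-proteasome pathway were counted from a list of 52 genes, 46 of them in the tables. In RA with DMSO, 8 of 43 tested were higher at 8 h (18.6%, beside 9.21% of all genes) and 1 was lower (2.33%, beside 9.08%). At day 1, 12 were higher (27.9%, beside 26.2%) and 15 lower (34.9%, beside 25.5%), and at day 2, 13 were higher (30.2%, beside 25.1%) and 10 lower (23.3%, beside 22.9%). At day 4, 13 were higher (30.2%, beside 28.7%) and 11 lower (25.6%, as of all genes), and at day 6, 12 were higher (27.9%, beside 29.1%) and 12 lower (27.9%, beside 26.1%). From day 2 on these shares lay near those of all genes. In DPY30-mAID cells at 24 h, total reads of 5 of 45 were higher (11.1%, beside 15.9%) and 15 lower (33.3%, beside 17.0%), and all 5 shuttle factors, which carry ubiquitinated proteins to the proteasome, were lower. Of these 5, total reads of 1 were lower in RBBP5-FKBP cells at 24 h, and of 0 at 24 h and 1 at 48 h in dKO cells. In dKO cells at 48 h, T>C reads of 38 of 42 were lower (90.5%, beside 72.3%). Of named genes, Pomp, the chaperone that matures the core, went from 1034 and 1025 scaled CPM at 0 h to 519 and 562 at day 4 of RA (log2 fold change −0.93, SE 0.12, adjusted p = 1.89e-07), without overlap. Nfe2l1 was at 124 and 133 at day 2 against 89.7 and 85.7 (0.55, SE 0.14, adjusted p = 0.00205), and was not called at day 1 or day 4. Its relative Nfe2l2, the gene of the stress factor NRF2, was lower at day 1, at 35.8 and 35.1 against 74.1 and 93.3 (−1.24, SE 0.27, adjusted p = 0.000419). The lid subunit gene Sem1 and the ubiquitin receptor gene Adrm1 were not called at any time of RA with DMSO. Psmc3ip, the match outside the proteasome, was not called at any of these times either.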

How the data were processed

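SLAM-seq and Quant-seq libraries were made with a 3′-end kit (QuantSeq FWD) without molecular identifiers. The deposited values are counts: per the file headers, SlamDunk gave total, T>C and multimapped reads in 46420 3′ UTR intervals for both assays. The study's methods name SlamDunk for SLAM-seq but HISAT 2.2.1 and featureCounts for Quant-seq, so how the authors made the Quant-seq counts is not settled. The build is GRCm38. Reads with a single conversion are in the T>C counts. Deposited CPM columns were not used.

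Intervals were summed per gene and named from GENCODE of the same build. There were 58 libraries, grouped by the labels. edgeR 4.0.16 (R 4.3.3) quasi-likelihood tests were fitted to every gene that averaged 10 or more reads in any group, per SLAM-seq line and over all Quant-seq groups, with Benjamini-Hochberg adjustment over all genes tested. T>C fits used total-read library sizes with TMM factors from total reads. SE is the absolute log2 fold change divided by the square root of F. Fits were tested on simulated data. Alternatives were DESeq2 1.42.0, other scalings, no filter, uniquely mapped reads, a replicate block and leaving out each library. Tables and figures used Python 3.11.15, pandas 2.3.3, numpy 2.4.6, scipy 1.17.1 and matplotlib 3.10.9.

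Members, lists and tests were chosen with earlier results of these data known. Library values are given for the highest and lowest members at 0 h in level and T>C share and, per comparison, for at most 3 called members in each direction by adjusted p, plus the immune forms. One gene of the neural marker list is not reported here. Names in counts of called members were chosen after their values were seen. The labels do not say whether replicates were separate cultures, so p-values measure the spread between these libraries.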

Additional observations from a re-analysis of the deposited data

Results flagged for a closer look

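The change of Psma2, an α ring gene, in T>C reads at 24 h of auxin differed between dKO and DPY30-mAID cells by −1.55 on the log2 scale. It stood out because the difference itself passed the test, the interaction in edgeR's joint fit of both lines (SE 0.42, adjusted p = 0.0278). The gene was lower at 24 h than at 0 h in both dKO libraries and higher in all 3 DPY30-mAID libraries. With the scaling taken from T>C reads the difference was −0.88 (adjusted p = 0.185). Leaving out 1 library at a time gave 0 to 1 called members. The median difference of the α ring was −1.34, with a range of −1.55 to −0.40. The lines also differ in read length, and line and read length cannot be told apart.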

How the results depend on the processing

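The counts of called members kept to within 1.5 times of the stated ones in most comparisons and settings. With DESeq2 they became 4 in place of 2 for T>C reads of DPY30-mAID cells at 8 h, 2 in place of 1 at 24 h, 2 in place of 0 in RBBP5-FKBP cells at 8 h, 5 in place of 1 for the difference between dKO and DPY30-mAID cells at 24 h, and 1, 6 and 1 in place of 2, 12 and 4 for auxin against DMSO at days 1, 4 and 6. With TMM factors from T>C reads, which set the median of all genes near 0 by construction, T>C counts became 1 higher in place of 2 lower (8 h), 5 in place of 1 (24 h, 4 of them higher), and 2 in place of 6 higher (24 h against 8 h, 1 higher and 1 lower) in DPY30-mAID cells, 0 in RBBP5-FKBP cells at 24 h, 3 and 1 in dKO cells at 24 and 48 h, and 0 for the difference between lines. Psmd7 and Psmd11 then turned from lower to 0.11 and 0.065 in RBBP5-FKBP cells at 24 h. Without TMM, 1 member was called at 8 h in DPY30-mAID cells. Without a filter on low counts there were 1 at 8 h, 0 at 24 h, 0 for the difference, and 6 in place of 2 for total reads of RBBP5-FKBP cells at 8 h. Without multimapped reads there was 1 in that comparison, and 2 in place of 4 for auxin at day 6. The replicate block gave 0 in place of 1 for T>C reads of DPY30-mAID cells at 24 h (Psmg3, adjusted p = 0.0515) and changed no other call of a named gene. Replicate numbers were not taken to pair the libraries, since not every same-number correlation of deviations was over 0.1 in any line. They ranged from −0.23 to 0.40, and those over 0.1 were 10 of 30 in dKO total reads, 6 of 90 in Quant-seq and 1 of 18 in RBBP5-FKBP total reads. Causes were not tested. Leaving out 1 library at a time gave, for T>C reads, 0 to 14, 0 to 0 and 1 to 20 in DPY30-mAID cells (8 h, 24 h, 24 h against 8 h), 4 to 9 in RBBP5-FKBP cells at 24 h, 12 to 15 and 24 to 30 in dKO cells at 24 and 48 h, and 0 to 1 for the difference. For total reads it gave 1 to 6 and 18 to 22 in DPY30-mAID cells and 0 to 8 and 0 to 1 in RBBP5-FKBP cells (8 and 24 h), 2 to 6 and 9 to 16 in dKO cells (24 and 48 h) and 22 to 33 for dKO against DPY30-mAID cells. In RA it gave 3 to 10, 21 to 26, 11 to 13, 21 to 23 and 28 to 29 from 8 h to day 6, and 0 to 1, 2 to 4, 6 to 9 and 2 to 16 for auxin against DMSO from day 1 to day 6. The counts of 0 at the other times stayed 0. Over all such fits, calls of named genes remained in 287 cases and were lost in 69.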
